A study of Mus musculus with 84 samples.

Results

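The 9 patterning transcription factors Emx2, Lhx2, Dmrta2, Nr2e1, Otx1, En2, Irx1, Irx2 and Zic1 were followed through both experiments of the study, among 25773 genes listed for the subtype experiment and 48526 listed for the experiment on experimental autoimmune encephalomyelitis (EAE). The first 5 genes stand for the forebrain side and the last 4 for the hindbrain side. They were chosen by name with their regional levels in these libraries known, so their levels in the subtype experiment are a description and carry no test. All 9 passed the filter of at least 10 counts in total in both experiments.

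Astrocytes were isolated by FACS as CD11B-negative, CD45-negative and ACSA-2-positive cells, and were divided by surface GLAST (the glutamate transporter SLC1A3). The subtype experiment used wild-type FVB/N mice, whose age is not given in the sources used here, and held 3 libraries for each of 5 labelled groups (forebrain GLASTneg and GLASTpos, hindbrain GLASTneg and GLASTpos, and spinal cord GLASTneg), plus 3 libraries of astrocytes cultured from the cerebrum of newborn C57BL/6J mice. The EAE experiment used C57BL/6J mice and sampled hindbrain GLASTneg, hindbrain GLASTpos and spinal cord GLASTneg astrocytes in unimmunized control mice (C; 5 libraries each). The same populations were taken from 10-week-old females immunized with a MOG peptide in complete Freund's adjuvant with pertussis toxin, at score 1 with a limp tail (E1; 6, 6 and 5 libraries), score 4 with hind leg paralysis (E4; 6 libraries each) and the chronic stage (Ech; 6, 4 and 6). Because the control mice were unimmunized, effects of the disease and of the immunization itself cannot be told apart. Forebrain included the olfactory bulbs, hindbrain joined cerebellum and brain stem, and the cord was cervical and thoracic. A library could hold RNA pooled from as many as 2 mice, and p-values measure the spread between such libraries. In sorted bulk RNA, fewer cells that express a gene and less of its RNA per cell cannot be told apart.

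During development the neural tube is divided along its length by transcription factors that are made in bands. Emx2, Lhx2, Dmrta2, Nr2e1 and Otx1 belong to the anterior end, where the telencephalon forms, while En2 marks the midbrain-hindbrain border and Irx1, Irx2 and Zic1 act in posterior and dorsal territories, with Zic1 required for the cerebellum. Astrocytes descend from the radial glia of each band and keep part of this positional code in adult life.

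The genes lie on separate chromosomes except Irx1 and Irx2, neighbours within the IrxA cluster on chromosome 13 of GRCm38 that are separated by 665096 bases. Zic1 (ENSMUSG00000032368, chr9:91358058-91365810, minus strand) overlaps Zic4 on the opposite strand, and Emx2, Lhx2 and En2 overlap noncoding genes on the opposite strand. Whether reads were counted by strand is not given in the sources used here, so reads of these pairs may not have been told apart. RefSeq promoter windows of 300 bases (GRCm38.p6, 250 bases before and 50 after a start) were matched for 6 of the 9 genes, and those of Otx1, En2 and Irx1 were not used here. Because LIM, EMX and OTX factors are homeodomain proteins, the windows were searched for the homeodomain core TAAT on either strand (TAAT or ATTA, overlapping matches counted). It was present in 57.9% of 32544 distinct promoters and in 3 of the 7 windows of these genes. The windows of the 3 forebrain-side genes with a match are shown with each match in capitals, and that of Zic1 is shown because this gene was called in cord at every EAE stage. They read as follows, 5′ to 3′ on the strand of the gene.
Emx2, chr19:59458440-59458739, plus strand: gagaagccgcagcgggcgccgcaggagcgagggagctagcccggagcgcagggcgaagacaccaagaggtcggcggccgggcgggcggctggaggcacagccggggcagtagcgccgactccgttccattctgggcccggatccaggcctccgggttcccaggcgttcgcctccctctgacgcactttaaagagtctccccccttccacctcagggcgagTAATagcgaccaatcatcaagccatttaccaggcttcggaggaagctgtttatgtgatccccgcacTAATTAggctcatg
Dmrta2, chr4:109977775-109978074, plus strand: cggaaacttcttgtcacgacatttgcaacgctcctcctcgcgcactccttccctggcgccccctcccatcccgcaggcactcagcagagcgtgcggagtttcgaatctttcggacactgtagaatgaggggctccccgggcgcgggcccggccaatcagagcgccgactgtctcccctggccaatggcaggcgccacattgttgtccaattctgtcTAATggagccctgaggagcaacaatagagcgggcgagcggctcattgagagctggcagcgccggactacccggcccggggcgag
Nr2e1, chr10:42583541-42583840, minus strand: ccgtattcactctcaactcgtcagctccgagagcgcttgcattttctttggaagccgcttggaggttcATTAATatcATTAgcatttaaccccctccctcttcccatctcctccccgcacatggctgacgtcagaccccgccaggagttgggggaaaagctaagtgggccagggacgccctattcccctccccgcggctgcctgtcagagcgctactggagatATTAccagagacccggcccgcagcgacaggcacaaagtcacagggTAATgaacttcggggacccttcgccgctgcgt
Zic1, chr9:91365719-91366018, minus strand: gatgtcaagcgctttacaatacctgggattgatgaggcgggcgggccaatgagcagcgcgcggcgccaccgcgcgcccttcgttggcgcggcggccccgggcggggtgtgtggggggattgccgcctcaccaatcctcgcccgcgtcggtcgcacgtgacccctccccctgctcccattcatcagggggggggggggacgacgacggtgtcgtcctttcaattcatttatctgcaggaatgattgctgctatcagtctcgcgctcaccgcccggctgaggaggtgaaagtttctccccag
The Emx2 window held 3 match positions, that of Dmrta2 1 and that of Nr2e1 5. No match was found in the windows of Lhx2, Irx2 and Zic1, which says only that these letters are not in those stretches. All 7 windows were rich in G and C, at 58.0% to 74.7% against a median of 53.0% over all promoters, with 19 to 34 CpG dinucleotides against a median of 7.

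Isolated libraries of the subtype experiment held 416768 to 1269316 counts and EAE libraries 1313682 to 4895220, so that 3 counts correspond to 2.36 to 7.2 and to 0.613 to 2.28 CPM, counts scaled to a common library size, respectively. Such floors cover counting error only. For 12 of the 15 isolated libraries the sample label and the group name carried by the study's own normalised counts differ. The libraries labelled forebrain GLASTpos, hindbrain GLASTneg, hindbrain GLASTpos and spinal cord GLASTneg are there named hindbrain GLASTneg, spinal cord GLASTneg, forebrain GLASTpos and hindbrain GLASTpos. Genes that mark the cord went with the second set of names. The 5 posterior Hox genes Hoxc6, Hoxc8, Hoxc9, Hoxa7 and Hoxa9, which are markers of cord, summed to at least 410 CPM in each of the libraries labelled hindbrain GLASTneg and were all at 0 in those labelled spinal cord GLASTneg. Levels are all the same given by label, as deposited, with the other name in parentheses. In 1 E1 cord library the title and the region field disagree, and the title was followed.

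The 5 forebrain-side factors were high in the libraries labelled forebrain GLASTneg (named the same) and hindbrain GLASTpos (named forebrain GLASTpos) and low or undetected in the other isolated libraries. Lhx2, a LIM homeodomain selector of cortex and hippocampus, was at 193, 283 and 185 CPM in the former and at 300.0, 389 and 329 CPM in the latter. It was at 15.8, 11.5 and 1.07 CPM in the libraries labelled forebrain GLASTpos (hindbrain GLASTneg), at 13.2, 25.1 and 21.7 CPM in those labelled spinal cord GLASTneg (hindbrain GLASTpos), and at 1.02, 1.46 and 0 CPM in those labelled hindbrain GLASTneg (spinal cord GLASTneg). Neither of the high groups overlapped any of the 3 low groups, and the 2 high groups did not overlap each other.

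Dmrta2, a doublesex-related factor of the cortical hem and dorsal telencephalon, was at 103, 98.2 and 105 CPM and at 124, 123 and 142 CPM in the same 2 high groups. It was detected above 3 counts in only 2 of the other 9 isolated libraries, at 5.66 and 8.7 CPM, and all 3 libraries labelled hindbrain GLASTneg (spinal cord GLASTneg) were at 0. Nr2e1, the orphan nuclear receptor TLX of forebrain neural stem cells, had 103, 69.4 and 53.6 CPM in the libraries labelled forebrain GLASTneg and 96.7, 145 and 126 CPM in those labelled hindbrain GLASTpos (forebrain GLASTpos). These 2 groups overlapped, and the highest value elsewhere was 13.5 CPM.

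Emx2, a homeodomain factor of dorsal telencephalon, was at 31.8, 54.2 and 29.1 CPM in the libraries labelled forebrain GLASTneg and at 62.5, 51.2 and 74.7 CPM in those labelled hindbrain GLASTpos (forebrain GLASTpos). The other 3 isolated groups stayed at or below 15.5 CPM, the highest being a library labelled spinal cord GLASTneg (hindbrain GLASTpos). Otx1, a homeodomain factor of forebrain and midbrain, was at 73.2, 68.6 and 76.9 CPM and at 60.1, 46.7 and 84 CPM in the high groups. Its next group was that labelled spinal cord GLASTneg (hindbrain GLASTpos), whose 3 libraries were spread over 12, 2.9 and 36.2 CPM, overlapping the libraries labelled forebrain GLASTpos (hindbrain GLASTneg) at 3.39, 15 and 3.21 CPM.

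Zic1, Irx1 and En2 stood highest in the libraries labelled spinal cord GLASTneg (hindbrain GLASTpos) and forebrain GLASTpos (hindbrain GLASTneg). Zic1, a zinc finger factor of dorsal neural tube and cerebellum, was at 478, 535 and 476 CPM in the first and at 190, 266 and 223 CPM in the second. It was at 43, 101 and 14 CPM in the libraries labelled hindbrain GLASTneg (spinal cord GLASTneg), and the libraries named forebrain in the normalised counts had 24.4 to 51.7 CPM. The top 2 groups overlapped neither each other nor any other isolated group, while the last 3 groups overlapped.

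Irx1, an Iroquois homeodomain factor, was at 68.7, 92.8 and 119 CPM in the libraries labelled spinal cord GLASTneg (hindbrain GLASTpos) and at 56.6, 75 and 63 CPM in those labelled forebrain GLASTpos (hindbrain GLASTneg), 2 groups that overlapped. It was at 19.1, 28.8 and 40.8 CPM in the libraries labelled forebrain GLASTneg, at 22.5, 19 and 42 CPM in those labelled hindbrain GLASTneg (spinal cord GLASTneg), and at 9.75, 4.45 and 1.85 CPM in those labelled hindbrain GLASTpos (forebrain GLASTpos). En2, the engrailed factor of the midbrain-hindbrain border, had 15.7, 16.4 and 37.2 CPM and 17, 17.3 and 15 CPM in the 2 groups named hindbrain, and at most 8.19 CPM in the others. Irx2, the neighbour of Irx1, was read with few counts, at most 44 in an isolated library, and its group ranges overlapped widely, with the highest library at 47 CPM among those labelled forebrain GLASTpos (hindbrain GLASTneg).

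**Figure D1:**
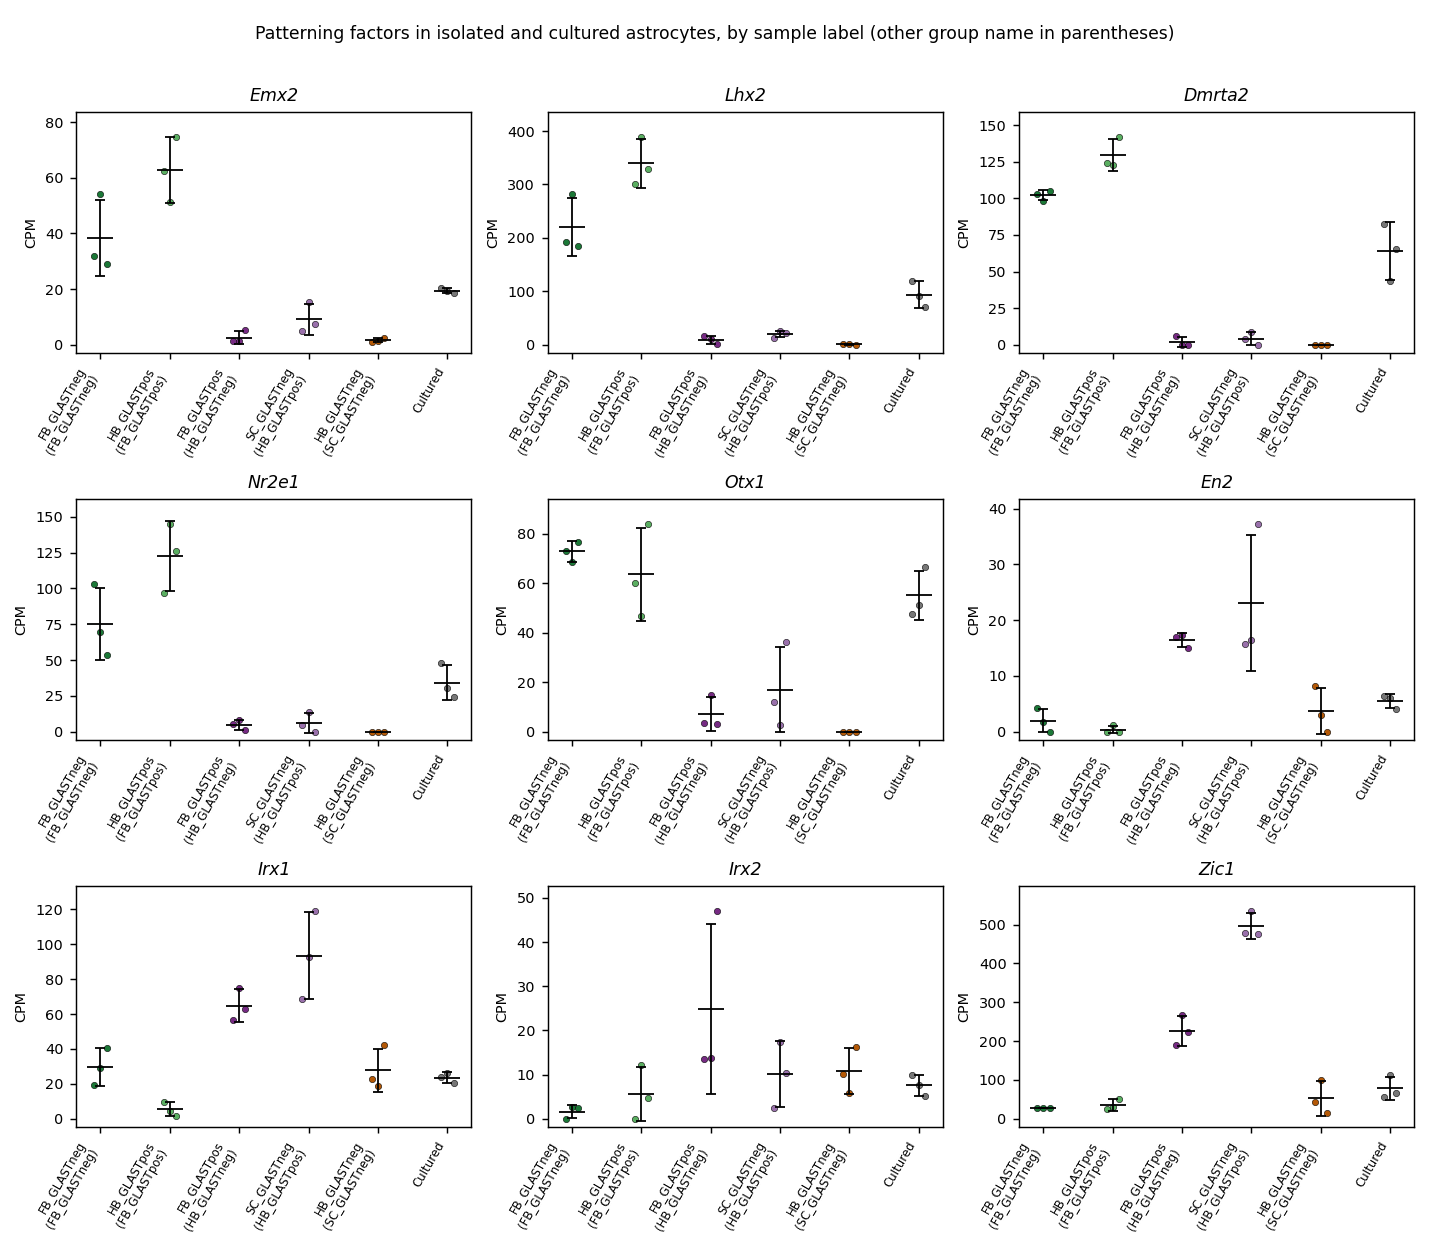
CPM of each factor (vertical axis, linear) in each library of the subtype experiment by sample label, with the other group name in parentheses; points are libraries, and the bar and whiskers are mean ± SD of 3 libraries. The 5 forebrain-side factors stand high in the groups whose other name is forebrain, and Zic1 reaches 476 to 535 CPM in the libraries labelled SC_GLASTneg. Cultured libraries were scaled apart from the isolated ones, in a scaling of all 18 libraries.

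Forebrain minus hindbrain was also taken from the fit, as the mean log2 level of the 2 forebrain groups minus that of the 2 hindbrain groups. Being a mean of logs, this difference weighs a low or empty group heavily and need not follow the mean CPM. The factors gave a different picture under each set of names. By the labels, 8 of the 9 differences were above 0, at 0.03 for Emx2, 1.25 for Lhx2, 1.77 for Dmrta2, 2.25 for Nr2e1, 2.97 for Otx1, 2.09 for En2, 1.83 for Irx1 and 0.86 for Zic1, and Irx2 was at -0.22. Hindbrain GLASTneg by label had 0 counts of Dmrta2, Nr2e1 and Otx1, so their sizes rest on a fitted value for an empty group. Leaving out 1 library gave either sign for Emx2, Dmrta2 and Irx2. Under the names of the normalised counts, the forebrain-side factors were all higher in forebrain, at 3.29 for Emx2, 4.3 for Lhx2, 5.29 for Dmrta2, 4.09 for Nr2e1 and 2.61 for Otx1. The hindbrain-side factors then all had negative differences, of -4.31 for En2, -2.6 for Irx1, -2.34 for Irx2 and -3.41 for Zic1.

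Cultured astrocytes kept counts of all 9 factors. Lhx2 was at 120, 90.3 and 71.3 CPM, Otx1 at 47.7, 51.3 and 66.5 CPM, and Zic1 at 56.1, 113 and 65.1 CPM. These levels lay below both high groups for Lhx2, Dmrta2, Nr2e1 and Emx2, whereas for Otx1 they overlapped the libraries labelled hindbrain GLASTpos (forebrain GLASTpos). Cultured values come from a TMM scaling of all 18 libraries and isolated values from one of the 15 isolated libraries. Narrow margins between them are therefore not secure. The summed CPM of 6 astrocyte markers was 2950 to 3460 in cultured and 18700 to 26400 in isolated libraries.

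A wider list of 49 regional and dorsoventral patterning factors was counted beside the members. Of its 26 genes tested in the subtype experiment, 2 were called by edgeR (adjusted p under 0.05 and a change of more than 1 log2 unit in either direction) between forebrain and hindbrain by the labels, Otx2 and Zic4, both higher in forebrain, where 0.441% of all 14957 genes were called, 0.401% higher and 0.0401% lower. Under the names of the normalised counts, 5 were higher in forebrain and 5 lower, against 2.09% and 2.13% of all genes (4.23% in all). The former included Fezf2 (log2 6.77 ± 1.05 SE, adjusted p = 5.6e-07), a factor of deep-layer cortical neurons, and the latter Pax3 (-4.64 ± 0.37, adjusted p = 6.81e-19), a dorsal neural tube factor, and Zic4 (-4.32 ± 0.61, adjusted p = 3.44e-08). Between spinal cord and hindbrain the list had 8 higher and 0 lower by the labels, where 3.22% of genes were higher and 3.24% lower (6.46% in all), and 1 higher and 7 lower under the other names, where 2.2% were higher and 1.88% lower (4.08% in all).

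As a description, the genes whose log2(CPM + 1) followed each member most closely over the 15 isolated libraries were named among 10562 genes whose mean level reached 5 CPM. Dmrta2 was close to Nr2e1 (Pearson r = 0.958) and Scara3 (0.958), and Nr2e1 closest to Dmrta2 (0.958), Fars2 (0.953) and Lmcd1 (0.95). Emx2 was closest to Scara3 (0.952), Nupr1 (0.945) and Mfge8 (0.944), Lhx2 to S1pr1 (0.97), Cspg5 (0.967) and Tspan7 (0.959), and Otx1 to Car8 (0.926), Tspan7 (0.921) and Lhx2 (0.918). The libraries form 5 groups that share region, so these values reflect group levels. With 5 CPM added in place of 1 before the log, 1 of the 3 nearest genes stayed for Emx2, Nr2e1 and Otx1. For the other members 2 or 3 stayed. Among the hindbrain-side genes, Zic1 was closest to Mybpc1 (0.934) and Fam155a (0.92), En2 to 1190002N15Rik (0.92) and Ddo (0.9), Irx1 to Cacng4 (0.89), Slc38a1 (0.885) and Ecm2 (0.876), and Irx2 to Galnt10 (0.88), Reln (0.812) and Sema6d (0.799).

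The EAE experiment gave levels of the same genes in other mice. Its labels carry a sheet number (a number in the library title) that was at most 56 in every hindbrain GLASTneg library and at least 57 in every hindbrain GLASTpos and control cord library. Differences between these populations therefore cannot be told apart from a block of sheet numbers. A second number in the titles was shared by 49 pairs of libraries from different populations of 1 stage. What it stands for is not given in the sources used here, and the tests treat these libraries as independent. Hoxc8 marked the cord libraries (log2 8.62 ± 1.02 above hindbrain GLASTneg in controls). It also had 22 counts in hindbrain GLASTpos replicate 1 at E4, and this replicate had the lowest En2 (19.4 CPM) and Irx1 (18.4 CPM) of its group. Scaled for depth, the sum of the posterior Hox genes named above was lower in this replicate than in every cord library of that stage (34.1 to 84.4 CPM).

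In control mice, spinal cord GLASTneg astrocytes carried less of 4 of the 9 factors than hindbrain GLASTneg astrocytes and more of none, where 4.2% of all 23324 genes were called, 1.58% lower and 2.62% higher. Zic1 was at 42.6, 45.3, 21.8, 30.1 and 23.9 CPM in cord and at 90.5 to 119 CPM with a median of 102 CPM in hindbrain GLASTneg. The libraries did not overlap, and cord was 3.21-fold lower (log2 -1.65 ± 0.29, edgeR adjusted p = 2.3e-05). Irx1 was at 14.4, 17.7, 9.75, 7.85 and 7.95 CPM in cord and at 67.6, 36.8, 57.3, 51.6 and 50.6 CPM in hindbrain GLASTneg, again without overlap (log2 -2.19 ± 0.42, adjusted p = 0.000167). Under scaling to astrocyte markers, an alternative described with the cord stages, both kept their sign in controls but neither passed the test (Zic1 at -1.07, adjusted p = 0.11, and Irx1 at -1.6, adjusted p = 0.0781).

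Otx1 and Nr2e1, forebrain-side factors, were detected in every control hindbrain GLASTneg library. Otx1 was at 22.9, 26.2, 30.6, 21.5 and 20.8 CPM there and had 2 counts in all 5 cord libraries, a ratio of 166 with a 95% counting interval of 45.5 to 1380 (adjusted p = 8.91e-05). Nr2e1 was at 23.4, 8.74, 22.6, 9.7 and 15.7 CPM and had no count in any cord library of any stage, at least 70.9-fold lower in controls against 3 counts over the group (adjusted p = 0.000556). Because sheet number varies apart from the groups mainly within cord, where these genes had almost no counts, a sheet number term is poorly estimated for them. Under such a term both calls were lost in controls and at E1 (adjusted p = 0.103 for Otx1 and 0.181 for Nr2e1 at E1). They were kept at E4 (6.86e-06 and 0.000476) and Ech (0.00219 and 0.0326).

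For En2, control cord libraries at 11.4, 0, 27.2, 8.79 and 2.81 CPM overlapped hindbrain GLASTneg libraries at 27.6, 7.36, 24.0, 5.89 and 14.1 CPM (log2 -0.62 ± 0.55, adjusted p = 0.615). Irx2 did not overlap, at 2.51 to 6.88 against 11.8 to 24.6 CPM, and yet was not called in controls (log2 -1.79 ± 0.69, adjusted p = 0.13). Irx2 was called lower in cord at E1 (-2.78 ± 0.7, adjusted p = 0.00236), E4 (-3.67 ± 0.69, adjusted p = 1.62e-05) and Ech (-2.13 ± 0.63, adjusted p = 0.00647). A scaling to astrocyte markers, which also raised the median of all genes in cord, turned its sign at E4 and Ech. At E1, E4 and Ech the members had 5, 5 and 5 lower and 0, 0 and 1 higher calls in cord, where 7.59%, 13.2% and 14.3% of all genes were called lower, 5.07%, 7.47% and 8.93% higher, and 12.7%, 20.7% and 23.2% in all. Zic1 was 24.1-fold lower at E1, 73.1-fold at E4 and 14.3-fold at Ech, of which the direction at Ech turned under that scaling, and Irx1 was 7.09-fold, 15.4-fold and 2.29-fold lower, with the direction turned at E4 and Ech. Otx1 and Nr2e1 were without a count in cord at E1 and Ech. The 1 higher call was Emx2 at Ech, with 41 counts in cord and 0 in hindbrain GLASTneg (at least 9.93-fold, adjusted p = 0.0112), which DESeq2 did not call (adjusted p = 0.0983).

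GLASTpos and GLASTneg astrocytes of hindbrain differed in both directions. In controls 4 of the 9 factors were called, 2 higher and 2 lower in GLASTpos, where 10.5% of all genes were called, 3.4% higher and 7.06% lower. At E1, E4 and Ech 2, 2 and 2 were higher, where 4.1%, 3.07% and 4.59% of all genes were, and 1, 3 and 0 lower, where 9.1%, 7.77% and 4.84% were, with 13.2%, 10.8% and 9.43% called in all. Zic1 was at 704, 616, 567, 677 and 622 CPM in GLASTpos, above every GLASTneg library, and was 6.16-fold higher (log2 2.63 ± 0.29, adjusted p = 7.36e-11). The same gap was seen at E1 (5.93-fold), E4 (5.61-fold) and Ech (5.89-fold), with no overlap at any stage.

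En2 was at 52.7, 44.3, 43.4, 87.3 and 20.1 CPM in control GLASTpos libraries, of which 1 lay within the range of GLASTneg, and was 3.35-fold higher (log2 1.66 ± 0.54, adjusted p = 0.0282). Its difference was 2.33 ± 0.5 at E1, 2.07 ± 0.49 at E4 and 3.53 ± 0.55 at Ech on the log2 scale, all called. Irx1 was not called in any of these comparisons, at 50.0 to 89.8 CPM in control GLASTpos against 36.8 to 67.6 CPM in GLASTneg (log2 0.51 ± 0.39, adjusted p = 0.405). Irx2 was not called either, at 2.65 to 18.9 against 11.8 to 24.6 CPM.

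The 2 lower factors in control GLASTpos were Otx1 and Nr2e1. Otx1 was at 0, 0, 6.2, 4.06 and 3.44 CPM, below all GLASTneg libraries, and 7.9-fold lower (log2 -3.1 ± 0.96, adjusted p = 0.0209). It was called lower again at E1 (20.8-fold) and E4 (42.4-fold) but not at Ech (5.05-fold, adjusted p = 0.165), where GLASTpos replicate 1 reached 23.4 CPM. Without that library Otx1 was called at Ech (-4.64), as was Nr2e1 (-7.24). Nr2e1 was at 3.68, 0, 1.31, 0 and 0 CPM in control GLASTpos (19.1-fold lower, adjusted p = 0.0252) and at 0 in all 6 GLASTpos libraries at E4, at least 53.9-fold lower. It was not called at E1 (6.98-fold lower, adjusted p = 0.0821) or Ech (3.27-fold lower, adjusted p = 0.529). Emx2, at 0 in all of these E4 libraries, was also called lower there on 11 counts in GLASTneg (at least 4.98-fold, adjusted p = 0.0487), a call that 9 of the 12 removals of 1 library ended.

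GLASTpos libraries also carried more of the Bergmann glia markers of cerebellum, summed over 6 genes at 6720 to 9160 CPM in controls against 2240 to 2610 CPM in GLASTneg, with none of the 6 at 0. Slc1a3, which encodes GLAST, was 2.38 log2 units higher. The sum of 8 oligodendrocyte markers had a median of 1240 CPM in GLASTpos and 2610 CPM in GLASTneg controls, with 7 of the 8 lower and 1 higher (median log2 -2.86). The part of these cells in the levels of Zic1 and En2 was not tested. With the sheet number as a term, the Zic1 difference in controls was 1.69 (adjusted p = 0.00534) and that of En2 1.95 (adjusted p = 0.0867). The lower calls of Otx1 (controls, E1 and E4), Nr2e1 (controls and E4) and Emx2 (E4) were all lost under this term. For Otx1 and Nr2e1 the term is poorly estimated, as stated above. The control calls of En2, Otx1 and Nr2e1 were each lost on removal of at least 1 library and under scaling to astrocyte markers, where En2 was at 1.52 (adjusted p = 0.127), Otx1 at -3.21 (adjusted p = 0.101) and Nr2e1 at -4.03 (adjusted p = 0.0864).

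**Figure D2:**
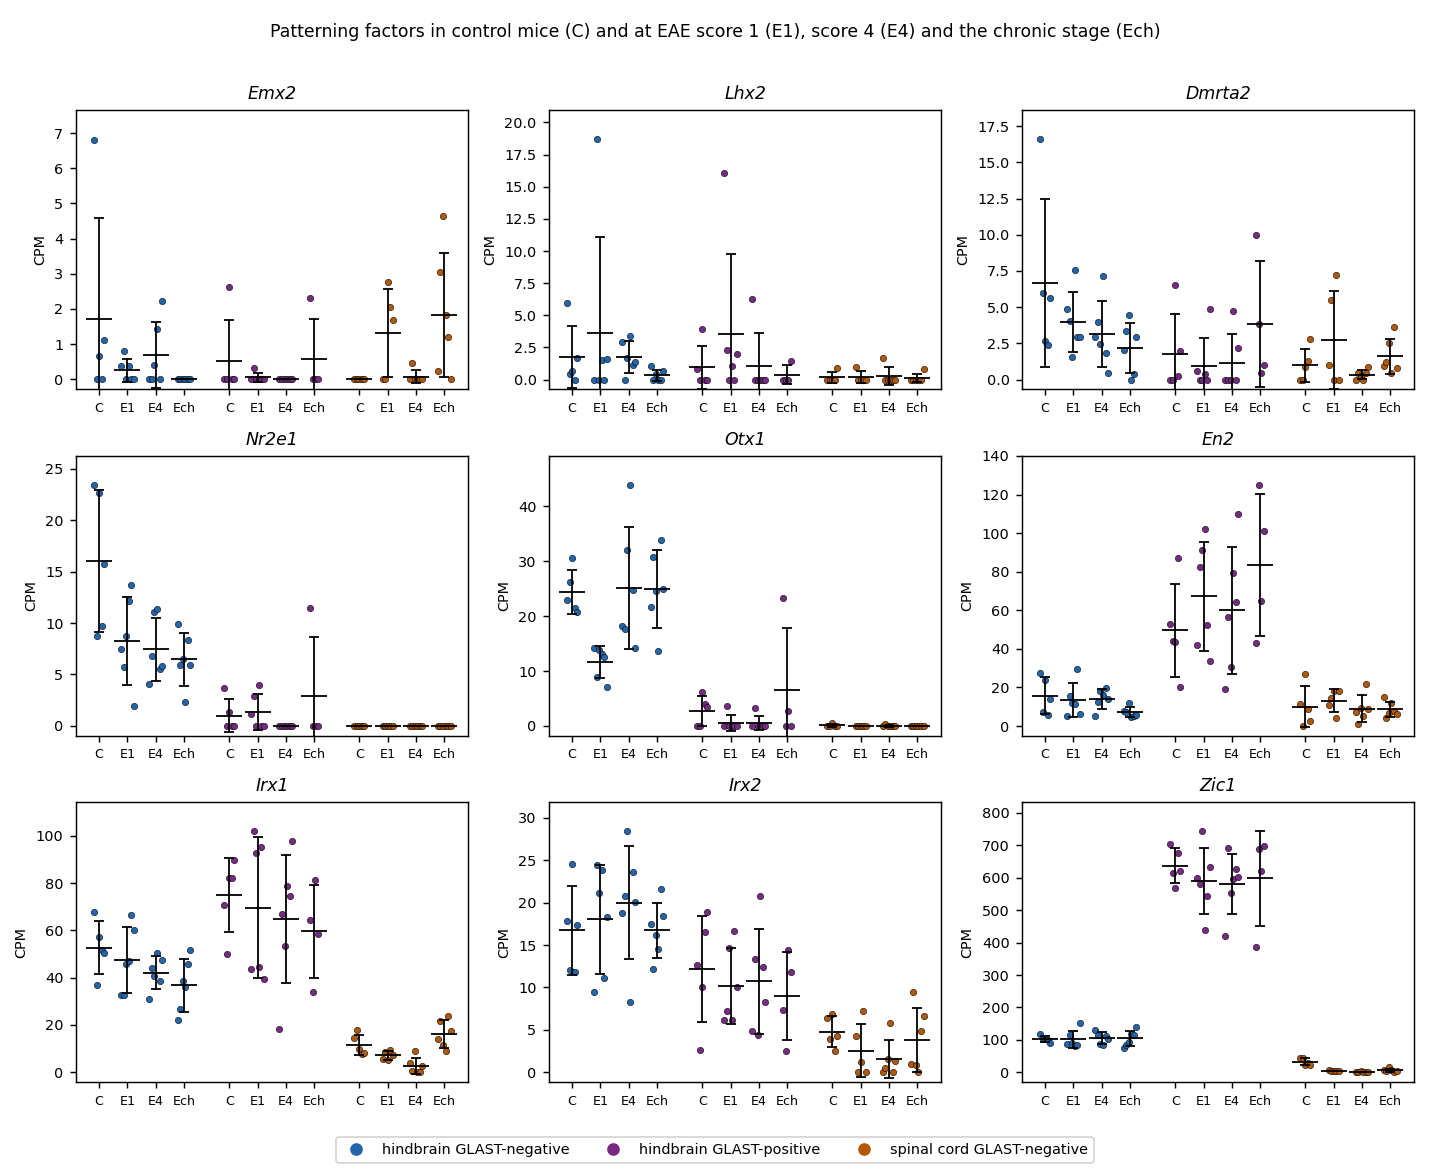
CPM of each factor (vertical axis, linear, own scale for each gene) in the 12 groups of the EAE experiment, by stage on the horizontal axis and population by colour; points are libraries, bars and whiskers mean ± SD of 4 to 6 libraries. Zic1 stands at 386 CPM or more in hindbrain GLASTpos libraries at all stages, and Nr2e1 at 0 in all cord libraries.

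In spinal cord GLASTneg libraries Zic1 was lower at each EAE stage, a direction that scaling to astrocyte markers kept at E1, left uncalled at E4 and turned at Ech. Zic1 was at 5.97, 4.56, 3.95, 3.08 and 3.09 CPM at E1, every library under the lowest control at 21.8 CPM, and was 7.66-fold lower (log2 -2.96 ± 0.33, adjusted p = 8.63e-10). At E4 its libraries ranged from 0 to 3.37 CPM, 2 of 6 without a count, and it was 22.9-fold lower (-4.55 ± 0.35, adjusted p = 1.64e-17). At Ech they ranged from 1.8 to 15.0 CPM and Zic1 was 4.4-fold lower (-2.24 ± 0.29, adjusted p = 2.97e-09). No stage overlapped the controls. Members called numbered 1 lower at E1, 2 lower at E4, and 1 lower and 1 higher at Ech, where 3.68%, 11.1% and 9.57% of all genes were called lower, 2.5%, 6.8% and 5.16% higher, and 6.17%, 17.9% and 14.7% in all. The median change of the 9 members was -0.81 at E4 and -0.22 at Ech (-0.04 with genes at 0 set to their bounds), against 0.0 over all genes. The value of -0.81 was that of Otx1, on 1 count at E4 and 2 in controls. That of -0.22 was Lhx2, on 3 counts at Ech and 2 in controls. These medians therefore rest on genes near the floor and cannot show whether the set shifted. The 3 stages share their control libraries. Zic1 stands on a list of the study that was drawn from these libraries, so its direction here is not independent evidence.

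Under TMM scaling the fall of Zic1 did not rest on 1 library. Over removal of each cord library in turn the log2 change was -3.16 to -2.81 at E1, -5.22 to -4.31 at E4 and -2.67 to -2.05 at Ech, with adjusted p of at most 7.41e-08. Without the E1 library whose fields disagree it was -3.16 (adjusted p = 2.01e-09). Within cord libraries with sheet numbers of 57 and above it was -2.95 at E1 and -2.02 at Ech, both called, while E4 had 1 such library.

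Irx1 was called lower at E4 alone, the direction of which turned under scaling to astrocyte markers. It was at 3.95, 0.449, 8.82, 0, 0 and 2.66 CPM at E4, of which 1 library lay within the control range of 7.85 to 17.7 CPM, and was 4.08-fold lower (log2 -2.06 ± 0.45, adjusted p = 0.000245). At E1 it was at 5.14 to 9.59 CPM (-0.67 ± 0.43, adjusted p = 0.327) and at Ech at 9.09 to 23.7 CPM (0.49 ± 0.4, adjusted p = 0.422). The 1 E4 library with a sheet number of 57 or above was the one at 8.82 CPM. Against the control libraries, all at 57 or above, the change of Irx1 was -0.37 in that library alone. With sheet number as a term the change was -1.58 (adjusted p = 0.0251). Stage and sheet number thus largely coincided in cord at E4.

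Irx2 was not called at any stage in cord, at -0.88 ± 0.71 for E1, -1.62 ± 0.71 for E4 (adjusted p = 0.0867) and -0.34 ± 0.66 for Ech on the log2 scale. At E4 DESeq2 called it (-1.63, adjusted p = 0.0408), and without E4 replicate 4 at 5.83 CPM edgeR called it at -2.68. En2 libraries overlapped, at 0.899 to 21.8 CPM at E4 against 0 to 27.2 CPM in controls (-0.15 ± 0.53, adjusted p = 0.969).

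Of the forebrain-side factors, Emx2 was called in cord at Ech. It had no count in the 5 control libraries and 1, 10, 22, 4, 4 and 0 counts at Ech, which is 0.235, 3.06, 4.65, 1.82, 1.2 and 0 CPM. Against 3 counts over the control group it was at least 8.84-fold higher (adjusted p = 0.028), but the call was lost on removal of any 1 of the 5 control libraries and in DESeq2 (adjusted p = 0.138). Emx2 had 0, 0, 7, 6 and 6 counts at E1 and 1 count in all at E4. Lhx2 and Otx1 were near or under the floor in cord at each stage, with at most 4 and 2 counts in a library. Dmrta2 had 4, 12, 0, 21 and 0 counts at E1 and 4, 4, 12, 1, 12 and 3 at Ech against 0, 0, 3, 4 and 6 in controls, and was not called (1.44 ± 1.27 at E1 and 0.7 ± 1.21 at Ech).

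The same libraries differed in their content of astrocyte transcripts. The sum of 6 astrocyte markers was 9870 to 13900 CPM in control cord, 2720 to 18400 at E1, 291 to 1470 at E4 and 438 to 1200 at Ech. All 6 markers were called lower at E4 and at Ech, and Atp1b2, the ACSA-2 antigen used for sorting, was at -4.21 ± 0.31 at E4. The sum of the oligodendrocyte markers was 13200 to 37800 CPM in control cord, 23300 to 50800 at E1, 23800 to 64500 at E4 and 22500 to 36000 at Ech, against 1300 to 10500 CPM in hindbrain GLASTneg libraries, and 3, 6 and 1 of the 8 were called higher at E1, E4 and Ech. All 4 markers of oligodendrocyte precursors were called higher at Ech, where they summed to 551 to 1980 CPM against 197 to 602 in controls. Hoxc8 also fell at E4 (-3.12 ± 0.64, adjusted p = 0.000115). The sum of 8 myeloid markers was 10.5 to 21.8 CPM in control cord, with Lyz2 at 0, and 60.4 to 3160 CPM at E4 with a median of 81.3, where 7 of the 8 were called higher (median log2 4.25). The highest was replicate 2, and other cord libraries held at most 183 CPM. The part of these differences in the levels of Zic1 and Irx1 was not tested.

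**Figure D3:**
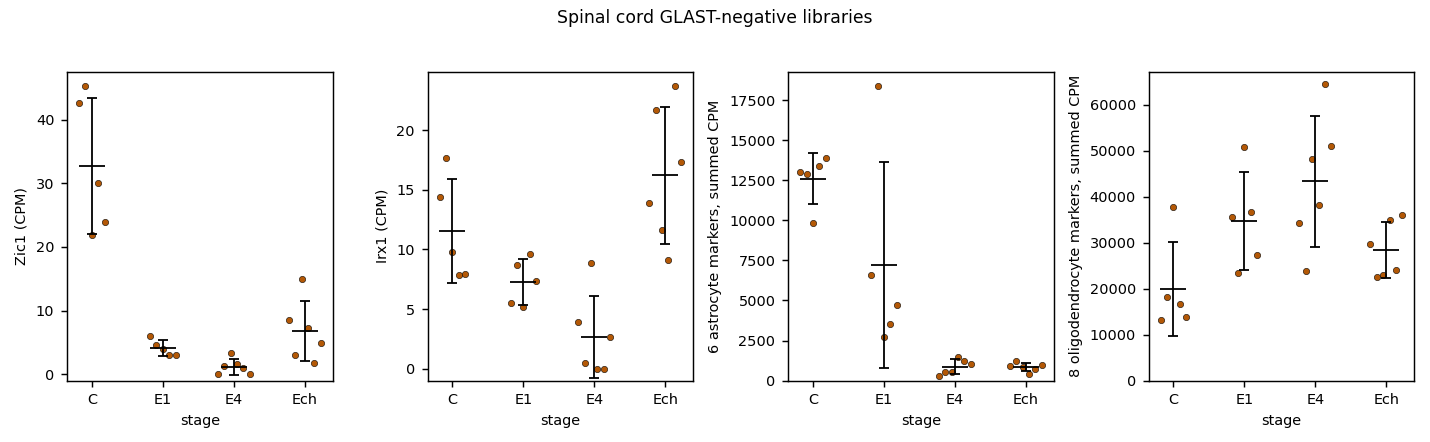
Zic1 and Irx1 (CPM) and the summed CPM of 6 astrocyte and 8 oligodendrocyte markers (vertical axes, linear) in the cord GLASTneg libraries by stage; points are libraries, bars and whiskers mean ± SD of 5 or 6 libraries. Zic1 lies at 21.8 CPM or more in controls and at 15.0 CPM or less in EAE, a direction that scaling to the astrocyte markers turns at Ech, and the astrocyte sum lies at 1470 CPM or less at E4 and Ech.

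Set against the astrocyte markers of the same library, Zic1 had a median of 2.26 CPM per 1000 astrocyte-marker CPM in control cord, 0.865 at E1, 0.899 at E4 and 6.97 at Ech. Irx1 had 0.988, 1.54, 1.68 and 17.6. An alternative fit, chosen after seeing the data, scaled libraries to these 6 markers, which moved the median log2 change of all genes in cord by 0.97 at E1, 3.92 at E4 and 3.74 at Ech. Under it Zic1 was at -1.75 ± 0.44 at E1 (adjusted p = 0.00124), -0.52 ± 0.47 at E4 (adjusted p = 0.338) and 1.72 ± 0.41 at Ech (adjusted p = 0.000172). Zic1 lay below those medians at all 3 stages. The scaling moves Zic1 and the medians largely together, so this position restates the TMM result. Whether TMM scaling or this one better follows the level per astrocyte was not tested. Irx1 was at 2.42 ± 0.6 and En2 at 3.75 ± 0.68 at E4, the latter close to the shift of all genes.

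**Figure D4:**
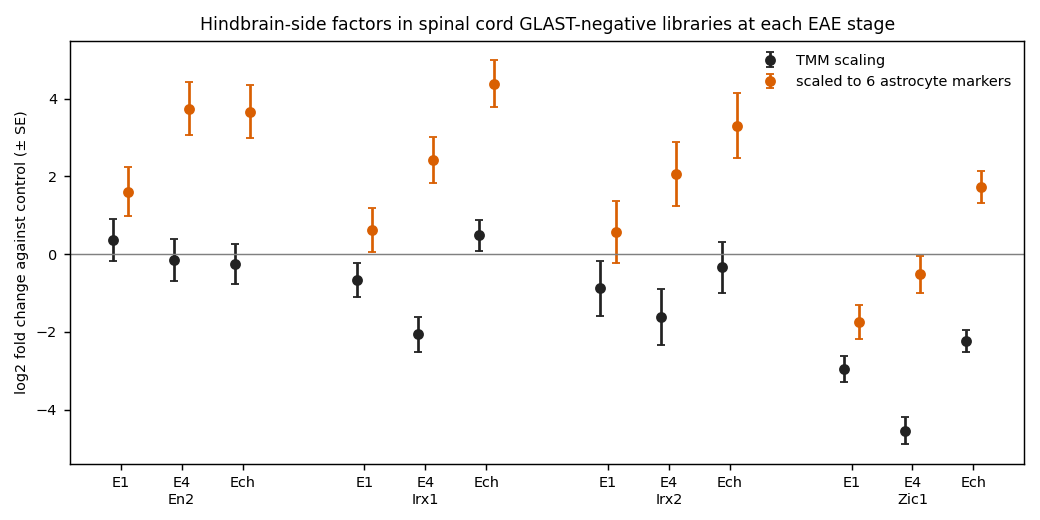
Log2 fold change against control (vertical axis, ± SE) of En2, Irx1, Irx2 and Zic1 in cord GLASTneg libraries at each stage, under TMM scaling (black) and scaled to 6 astrocyte markers (orange). All points move up under the second scaling, and Zic1 goes from -2.24 to 1.72 at Ech.

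No member was called by edgeR in hindbrain GLASTneg at E1, E4 or Ech, where 0.643%, 0.729% and 0.193% of all genes were called, nor in hindbrain GLASTpos, where 1.49%, 2.03% and 1.31% were. At an unadjusted p under 0.05 there were 0, 0 and 2 members in GLASTneg (En2 and Emx2 at Ech) and 1, 3 and 0 in GLASTpos (Otx1 at E1, and Otx1, Nr2e1 and Emx2 at E4), and DESeq2 called 0 in all 6 comparisons. Zic1 in GLASTneg was at 80.9 to 151 CPM at E1, 84.5 to 131 at E4 and 73.9 to 139 at Ech, around the controls at 90.5 to 119. Its log2 change lay between -0.13 and 0.03 in the 6 comparisons, with standard errors of 0.26 to 0.29.

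Otx1 in hindbrain GLASTneg at E1 was at 14.3, 8.95, 13.9, 13.2, 12.6 and 7.17 CPM, all below the controls, but its change of -1.06 ± 0.84 was not called (adjusted p = 0.811). At E4 and Ech its libraries ranged over 14.3 to 43.9 and 13.6 to 33.8 CPM and overlapped the controls. In GLASTpos Otx1 was called lower at E1 and E4 once a single library was left out, at -6.07 without E1 replicate 2 and -6.06 without E4 replicate 2, where no count remained in the stage.

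The difference in response between cord and hindbrain was tested directly for each stage. The change of Zic1 was lower in cord than in either hindbrain population at every stage, a direction that scaling to astrocyte markers turned at Ech and left uncalled at E4 (-0.47 against either population). The difference of its log2 changes was -2.94 ± 0.42, -4.59 ± 0.45 and -2.26 ± 0.39 against hindbrain GLASTneg at E1, E4 and Ech, with adjusted p of 2.73e-05, 1.12e-12 and 1.39e-05, and between -4.42 and -2.15 against GLASTpos. It was among 1, 2 and 2 members called against GLASTneg, where 0.214%, 7.92% and 6.8% of all genes were called, and among 1, 2 and 1 called against GLASTpos, where 1.99%, 12.3% and 12.6% were. The others were Irx1 at E4, at -1.74 ± 0.59 and -1.86 ± 0.58 (adjusted p = 0.049 and 0.0236), which turned under the same scaling and was lost on removal of any of 15 libraries against GLASTneg and any of 3 against GLASTpos, and Emx2 at Ech against GLASTneg, where both comparisons hold a group without a count.

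Of the wider list, 42 genes were tested in the EAE experiment and had a median log2 change of -0.3 at E1, -1.4 at E4 and -0.72 at Ech in cord, against 0.0 over all genes at each stage. With genes at 0 set to their bounds the medians were 0.0, -0.33 and -0.04. At E1 9 were lower and 1 higher, at E4 14 lower and 2 higher, and at Ech 15 lower and 4 higher, where 3.68%, 11.1% and 9.57% of all genes were lower and 2.5%, 6.8% and 5.16% higher. Under scaling to astrocyte markers these became 4 lower and 5 higher, 1 lower and 15 higher, and 1 lower and 19 higher, where 30.4%, 66.3% and 65.6% of all genes were called higher.

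Relatives of Zic1 were among the lower genes before that scaling. Zic4, which shares its locus with Zic1, was at -3.59 ± 0.83 at E4 and had 0 counts at Ech (at least 13.4-fold lower), and Zic5 was at -4.1 ± 0.94, -4.84 ± 0.99 and -5.02 ± 0.95 on 39 control counts, of which 2 of 5 libraries held none.

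Nkx6-1, a homeodomain factor of ventral progenitors, was at 51.1 to 74.4 CPM in control cord, 11.7 to 101 at E1, 0.519 to 3.95 at E4 and 0.611 to 5.29 at Ech, with changes of -5.01 ± 0.7 (adjusted p = 2.69e-08) at E4 and -4.91 ± 0.69 at Ech. Pax6 fell from 21.3 to 53.7 CPM to 0.444 to 3.89 CPM at E4 (-3.83 ± 0.44) and was at 3.76 to 9.29 CPM at Ech (-2.56 ± 0.4). Otx2 was called lower at E1 and Ech on 22 control counts that all came from 1 library, and Rax at E4 and Ech on 12. These directions are those of TMM scaling.

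The higher genes, named after their values were seen apart from Gsx1, included Nkx6-2 at all 3 stages (1.97 ± 0.46, 2.7 ± 0.47 and 1.69 ± 0.45) and Gsx1, En1 and Nkx2-2 at Ech. Nkx6-2 and Nkx2-2 are factors of oligodendrocytes. Gsx1, a homeodomain factor of dorsal cord interneurons, had no count in control cord and was detected in all 6 Ech libraries at 0.941 to 7.19 CPM, at least 15.1-fold higher (adjusted p = 0.0173). En1, the paralogue of En2, had 12 counts at Ech and 0 in controls (at least 2.59-fold higher).

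In hindbrain 0 genes of the wider list were called by edgeR at any stage, with 6, 2 and 5 at an unadjusted p under 0.05 in GLASTneg and 8, 8 and 11 in GLASTpos, and with 0, 0, 0, 0, 2 and 1 called by DESeq2. Between populations of control mice, 7 of the 42 were lower in cord than in hindbrain GLASTneg and 0 higher, where 1.58% of all genes were lower and 2.62% higher, with En1 at least 97.7-fold lower and Zic4 at -3.39 ± 0.48. In GLASTpos against GLASTneg 4 were higher and 8 lower, where 3.4% of all genes were higher and 7.06% lower, the latter with Otx2 (-3.79 ± 0.69, adjusted p = 3.39e-05), Nkx6-1 (-3.41 ± 0.72) and Fezf2, which had 36 counts in GLASTneg and 0 in GLASTpos.

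Over all 66 EAE libraries, Otx1 was most like Otx2 (r = 0.926), Gm13111 (0.898) and Cpe (0.894), and Nr2e1 most like Otx1 (0.897), Cpe (0.846) and Otx2 (0.843). Zic1 was most like Gria1 (0.976), a glutamate receptor subunit of Bergmann glia, Sirpa (0.967) and Dpy19l3 (0.967), and En2 most like Msx2 (0.878), Cnn3 (0.862) and Prkci (0.86). Irx1 was most like Ppp2r2b (0.899), Luzp2 (0.896) and Shisa9 (0.892), Irx2 most like Mfge8 (0.828), Adcyap1r1 (0.822) and Gpx8 (0.801), and Dmrta2 most like Cadm2 (0.578), Rnf24 (0.564) and Cpe (0.556). These libraries share population and stage, and the values describe that sharing. With 5 CPM added in place of 1 before the log, 1 of the 3 nearest genes stayed for En2, and 2 or 3 for the others.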

How the data were processed

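The authors prepared QuantSeq 3′ libraries, aligned reads to GRCm38 with HISAT 0.1.5, counted reads per gene with HTSeq 0.6.1p1 in union mode and deposited raw counts in 1 table per experiment (18 and 66 libraries). The strand setting is not given in the sources used here. Symbols were matched to Ensembl IDs through the GENCODE annotation of GRCm38. The members and lists were chosen with earlier results of these data known.

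Counts were fitted with the quasi-likelihood test of edgeR 4.0.16 (R 4.3.3, limma 3.58.1, TMM scaling) on genes with at least 10 counts in total, in 1 fit of 15 isolated libraries (14957 genes) and 1 of 66 EAE libraries (23324 genes). Tests were two-sided, with Benjamini-Hochberg adjustment over all genes of a fit, and genes were called at an adjusted p under 0.05 and a log2 fold change beyond 1 in either direction. CPM are TMM-scaled, and folds are ratios of pooled counts over pooled scaled library sizes. Median depth was 907710 counts in isolated and 2936680 in EAE libraries. On simulated data for E4 against control in cord, 63 of 100 genes changed by log2 1.5 and 88 of 100 changed by log2 3 were called, with 8 unchanged genes called among 22580 genes. The changed genes were drawn from those with a mean of at least 5 CPM. These shares therefore do not extend to members with lower means, such as Emx2 and Lhx2.

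All 9 members were named, as were called genes of the wider list up to 8 with the largest change per family of contrasts, and the 3 genes most like each member, apart from some genes that are not reported here. Groups follow the sample labels. Alternatives were DESeq2 1.42.0, other scalings and filters, a sheet number term, a replicate block and removal of each library. Removal fits of EAE libraries kept the dispersion trend of the full fit. Same-numbered libraries deviated together no more than others (mean r = -0.00166 against 0.000407 in EAE, -0.00563 against 0.00281 in the subtype experiment), so replicate numbers were not used as pairs. A second title number was not used in the tests, and a fit with it as a block was added after seeing the data. Python 3.11.15 with pandas 2.3.3, scipy 1.17.1, numpy 2.4.6 and matplotlib 3.10.9 was used for levels and figures.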

Additional observations from a re-analysis of the deposited data

Results flagged for a closer look

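In 88 groups of 4 to 6 EAE libraries checked for 1 library far from the others, 17 were found. How many chance would give was not measured, and several of these groups had no count in most libraries. The cause was not tested for any of them. Control hindbrain GLASTneg replicate 1 stood high for 3 forebrain-side factors at once, Emx2 at 6.8, Lhx2 at 5.95 and Dmrta2 at 16.6 CPM. Control hindbrain GLASTpos replicate 3 stood high for Emx2 at 2.61 and Lhx2 at 3.92 CPM. Hindbrain GLASTpos replicate 1 at Ech stood high for Emx2 at 2.3, Nr2e1 at 11.5 and Otx1 at 23.4 CPM.

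Lhx2 stood high in 1 library of 5 further groups, at 18.7 CPM in hindbrain GLASTneg replicate 2 at E1, at 16.1 CPM in GLASTpos replicate 1 at E1, at 6.3 CPM in GLASTpos replicate 1 at E4, at 1.47 CPM in GLASTpos replicate 4 at Ech and at 0.996 CPM in cord replicate 1 at E1. Dmrta2 was at 4.89 CPM in GLASTpos replicate 6 at E1. Otx1 was at 3.61 and 3.23 CPM in GLASTpos replicate 2 at E1 and replicate 2 at E4, the only library with counts in each group. Irx2 was at 5.83 CPM in cord replicate 4 at E4.

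Differences in response between populations passed the test 9 times. Zic1 changed by -2.94, -4.59 and -2.26 on the log2 scale in cord relative to hindbrain GLASTneg at E1, E4 and Ech, and by -2.85, -4.42 and -2.15 relative to GLASTpos. Irx1 at E4 differed by -1.74 and -1.86. Emx2 at Ech differed by 10.85 relative to GLASTneg, a fitted value that depends on groups without any count and is no measure of size.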

How the results depend on the processing

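Calls of members numbered 5 for EAE stages, 20 for cord against hindbrain GLASTneg, 14 for GLASTpos against GLASTneg and 9 for differences in response. Leaving out 1 library gave 4 to 6, 20 to 21, 12 to 16 and 7 to 10, and a replicate block gave 5, 21, 13 and 9. Under the block Lhx2 at E1 in cord against hindbrain GLASTneg was called (-5.37) and Emx2 at E4 in GLASTpos was not (-4.28), and no other member changed. The 49 pairs of libraries of 1 stage that share the second title number had a mean correlation of deviations of 0.0236 (-0.00351 for other pairs), over 0.1 in 3 pairs, and whether they are paired was not settled. A block for that number, chosen after seeing the data and possible only between populations, gave 19 calls for cord against hindbrain GLASTneg, 14 for GLASTpos and 7 differences in response. It ended the calls of Emx2 at Ech in cord against hindbrain GLASTneg (adjusted p = 0.129) and in the response (adjusted p = 0.181), of Nr2e1 in control GLASTpos (adjusted p = 0.0956), of Emx2 in GLASTpos at E4 (adjusted p = 0.294) and of the Irx1 response at E4 against GLASTneg (adjusted p = 0.0586), and it added Otx1 (-4.91) and Nr2e1 (-5.48) in GLASTpos at Ech. Sheet number as a term left 7 calls for GLASTpos against GLASTneg, and for cord against hindbrain GLASTneg it ended those of Otx1 and Nr2e1 in controls and at E1. Its estimate rests on cord libraries, where Otx1 and Nr2e1 had almost no counts. RLE size factors changed no member call. The wider list had 35 higher and 128 lower calls over all EAE contrasts, 33 to 36 and 120 to 130 on leaving out 1 library, 36 and 114 with the block, and 20 higher with the sheet term.

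Scaling to astrocyte markers, chosen after seeing the data, gave 14 stage calls, 21 differences in response, and 88 higher and 47 lower wider-list calls. It moved the median of all genes as well, and which scaling better follows the level per astrocyte was not tested. It also turned the sign of 22 member values. Against control in cord these were En2 (3.75), Irx1 (2.42) and Irx2 (2.06) at E4 and En2 (3.67), Irx2 (3.31) and Zic1 (1.72) at Ech. Against hindbrain GLASTneg they were En2 at E1 (1.96), En2 (4.11), Irx1 (1.25) and Irx2 (0.74) at E4, and Dmrta2 (3.89), Irx1 (3.1), Irx2 (1.95) and Zic1 (0.4) at Ech. Differences in response turned for En2 (3.98) and Irx1 (2.85) at E4 and Irx2 (3.09) and Zic1 (1.47) at Ech against GLASTneg, and for En2 (3.46) and Irx1 (2.64) at E4 and En2 (2.57) and Zic1 (1.52) at Ech against GLASTpos.

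In the subtype experiment, forebrain minus hindbrain moved from the labels to the other names to 3.29 (Emx2), 4.3 (Lhx2), 5.29 (Dmrta2), 4.09 (Nr2e1), -4.31 (En2), -2.6 (Irx1), -2.34 (Irx2) and -3.41 (Zic1). By the labels, leaving out 1 library gave -0.51 to 0.2 for Emx2, 0.97 to 1.53 for Lhx2, -0.17 to 2.06 for Dmrta2, 2.0 to 2.5 for Nr2e1, 2.44 to 3.15 for Otx1, 1.58 to 2.97 for En2, 1.63 to 2.24 for Irx1, -0.65 to 0.4 for Irx2 and 0.67 to 1.27 for Zic1. Wider-list calls between forebrain and hindbrain numbered 2, against 10 under the other names, 1 with filterByExpr, 1 with DESeq2 and 1 to 4 on leaving out 1 library. Those between cord and hindbrain numbered 8 (6 to 9, and 6 with the block). Factors read at a few counts per library (Lhx2 and Otx1 in cord, for example) cannot show small differences at this depth.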
